A study of Mus musculus with 564 samples.

Results

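The elements described here belong to 9 genes with which macrophages sense, take up and export lipid. They are the nuclear receptors PPARg (Pparg), PPARd (Ppard), LXRb (Nr1h2), LXRa (Nr1h3) and their partner RXRa (Rxra), the cholesterol exporters Abca1 and Abcg1, the scavenger receptor Cd36 and the fatty acid carrier Fabp4. ChIP-seq had measured H3K27ac, the acetylation of lysine 27 on histone H3 that active enhancers and promoters carry, at 59190 cis-regulatory elements (CREs) of the mouse genome, build mm10. Of these, 63 were selected because their centre lay within 25 kb of a RefSeq transcription start of 1 of the 9 genes. Rxra held 11, Cd36 10, Ppard 8 and Abca1 7, while Abcg1, Pparg, Nr1h2 and Nr1h3 held 6 each and Fabp4 3. No measured value entered this distance rule, but the genes were chosen with earlier results of these data known. For 54 of the 63 the start of the gene itself was the nearest protein-coding start, and the other 9 lay closer to a neighbouring gene. Each CRE is named by its gene and the kb from the most upstream start of that gene to its centre, negative when upstream, so that Pparg -17.3 has its centre 17334 bp before the first Pparg start.

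The cells were bone marrow-derived macrophages (BMDMs) from wild type mice, which the methods of the study give as male C57/BL6 animals of 6 to 8 weeks. All cells received either the vehicle DMSO or 1 of 58 clinical kinase inhibitors (CKIs) for 1 h. They were then left unstimulated (UT) or were given 10 ng/mL of lipopolysaccharide (LPS), the bacterial ligand of TLR4, or of interleukin 4 (IL-4), for 30 min, 1 h, 2 h or 4 h. The 564 libraries comprised 18 from DMSO cells, 2 for each of 9 groups, and 546 from CKI cells, mostly 1 for each CKI, stimulus and time. UT samples are labelled as 4 h without stimulus but titled 0 h, and they served as the start of both time courses. Nothing in the sources used here says whether replicates came from separate cultures or animals, so the p-values measure only the spread between these samples, which may be technical.

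PPARs and LXRs bind DNA as dimers with RXRa and are switched on by lipids, PPARs by fatty acids and their oxidised forms and LXRs by oxysterols. In macrophages LXR drives cholesterol export through Abca1 and Abcg1, while PPARg drives uptake through Cd36 and fatty acid handling through Fabp4. IL-4 acts through the JAK kinases and the transcription factor STAT6, which is known to cooperate with PPARg, and TLR4 signalling is known to oppose many LXR and PPAR target genes.

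Sequences are shown first, as the 200 bases around the centre on the plus strand, for the Pparg CRE with the largest change after LPS and for the Abcg1 and Cd36 CREs with the largest change after IL-4. They were read from the mm10 assembly (GRCm38) at chr6:115343445-115343644 for Pparg -17.3, which is intergenic, and at chr17:31070923-31071122 and chr5:17857383-17857582 for the intronic Abcg1 +13.3 and Cd36 +31.5. Capitals mark a match to the STAT6 motif TTCNNNNGAA.
Pparg -17.3: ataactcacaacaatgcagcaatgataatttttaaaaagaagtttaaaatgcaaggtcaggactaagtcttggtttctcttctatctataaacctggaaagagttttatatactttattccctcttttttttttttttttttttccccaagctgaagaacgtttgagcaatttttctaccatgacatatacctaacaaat
Abcg1 +13.3: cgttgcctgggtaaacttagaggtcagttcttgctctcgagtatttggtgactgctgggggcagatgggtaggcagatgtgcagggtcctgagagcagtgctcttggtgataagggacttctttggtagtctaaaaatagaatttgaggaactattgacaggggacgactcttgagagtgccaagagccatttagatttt
Cd36 +31.5: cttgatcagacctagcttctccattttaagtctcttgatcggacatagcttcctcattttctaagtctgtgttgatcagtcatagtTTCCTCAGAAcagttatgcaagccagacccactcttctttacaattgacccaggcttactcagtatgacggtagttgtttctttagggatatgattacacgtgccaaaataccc

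Shorter stretches show a selection of the STAT6 and DR4 matches at CREs of Pparg, Abca1 and Abcg1 called after IL-4, with the match in capitals and 10 bases on either side. The LXR and RXR motif DR4 (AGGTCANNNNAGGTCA) was searched with at most 1 mismatch in each half-site, and both strands were read for every motif.
Pparg +20, STAT6 motif at chr6:115380782-115380791: ggtaactagtTTCGGTAGAAagatgtgtgt
Pparg +20, STAT6 motif at chr6:115380979-115380988: cacatttattTTCTAGCGAAaccttttctg
Abca1 +0.6, STAT6 motif at chr4:53159189-53159198: cctactagagTTCTTTGGAAacaaggacat
Abcg1 +3.1, STAT6 motif at chr17:31060404-31060413: ctgtacaaagTTCCCAGGAAcggacttcct
Abcg1 +17.1, DR4 motif at chr17:31074368-31074383: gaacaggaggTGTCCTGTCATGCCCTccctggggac
Pparg +23.3, DR4 motif at chr6:115384332-115384347: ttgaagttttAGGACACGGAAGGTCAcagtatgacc
In windows of 1001 bp around the centre, 18 of the 63 CREs held a STAT6 match, against 25.1% of all CREs, and 7 held a DR4 match, against 7.01%. The PPAR and RXR motif DR1 (AGGTCANAGGTCA, same mismatches) was found in 6, against 8.83% of all CREs. The AP-1 motif TGANTCA was found in 21 (36.1% of all CREs), the PU.1 motif GAGGAAGT in 5 (14.5%) and the interferon motif GAAANNGAAA in 3 (14.5%). Such a match is a run of letters and not a site shown to be bound. Pparg -17.3 and Abcg1 +13.3 held none of these letters in their windows.

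The values are the normalized read counts of the authors, rounded to whole numbers. Their sum ran from 5923684 to 6873668 for DMSO and from 4066894 to 12391409 for CKI libraries, and the depth before scaling could be estimated for 9 DMSO libraries (2344196 to 5806632 reads in CREs) and 470 CKI libraries (342475 to 6158203). The median of the strongest 10% of CREs divided by that of the weakest 10%, a measure of contrast, was 53 to 134 in DMSO libraries (median 75.1) and 3.34 to 67.2 in CKI libraries (median 17.6). Replicates of a DMSO group correlated across CREs with r of 0.960 to 0.982, and their standard deviation at the 63 CREs was 0.27 on the log2 scale. A CRE within 1 kb of a start was present for 5 of 8 macrophage markers, with a median in DMSO libraries between 201.5 for Mertk and 2072 for Spi1, the gene of PU.1, whereas Csf1r, Adgre1 and Cd68 had no such CRE in the table. None of the 4 T cell, 4 B cell, 4 adipocyte and 4 hepatocyte markers had such a CRE, and of the 4 fibroblast markers Col1a1 alone had one, with values of 1 to 18.

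LPS lowered H3K27ac at the CREs of these genes more often than it raised it, mainly at Rxra, Cd36 and Ppard. The loss covered every CRE of Rxra. In the DMSO cells 29 of 59 tested CREs (49.2%) were called as lower and 8 (13.6%) as higher, against 24.5% and 29% of all CREs, with the direction taken at the time of the largest difference. A CRE was called by limma on log2(value + 5) when an F-test over the 4 times gave an adjusted p under 0.01 and the log2 difference from UT passed 1 in either direction. In either direction 37 of 59 were called, against 53.5% of all CREs. The lower calls lay mostly at Rxra (11), Cd36 (7) and Ppard (5), and Cd36 and Ppard each had 1 higher call. Lower and higher calls numbered 2 and 1 at Abca1, 2 and 2 at Abcg1 and 1 and 1 at Nr1h3. They numbered 1 and 0 at Pparg, 0 and 1 at Nr1h2 and 0 and 1 at Fabp4. The excess of lower calls was therefore not shared by all 9 genes. The median of the largest log2 difference was -0.99 over the 59 CREs and 0.37 over all CREs tested. Cd36 +12.1, Cd36 +8.8 and Ppard +24.3 passed 1 in both directions, up at 30 min and down at 2 h. Of the 29 CREs called as lower, 21 had their largest difference at 2 h. Because of a mean under 10, 4 of the 63 CREs were not tested after LPS and 2 after IL-4. In bulk chromatin, fewer cells with the mark and less mark in each cell cannot be told apart.

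IL-4 divided the genes. In the DMSO cells all 7 CREs of Abca1 fell and 4 of 6 at Abcg1 rose. All 10 at Cd36 were called, each above UT at 30 min and below it at 4 h. In all, by the direction of the largest difference, 13 of 61 tested CREs (21.3%) were called as higher and 16 (26.2%) as lower, against 13.6% and 11% of all CREs. Of the 10 Cd36 CREs, all but Cd36 +49.2 and Cd36 +67.4 passed 1 in both directions, so their split into 6 higher and 4 lower reflects the larger of the changes. In either direction 29 were called, against 24.7%. The largest difference came at 30 min in 9 of the 13 called as higher. The heat map of all 63 CREs shows both time courses.

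**Figure D1:**
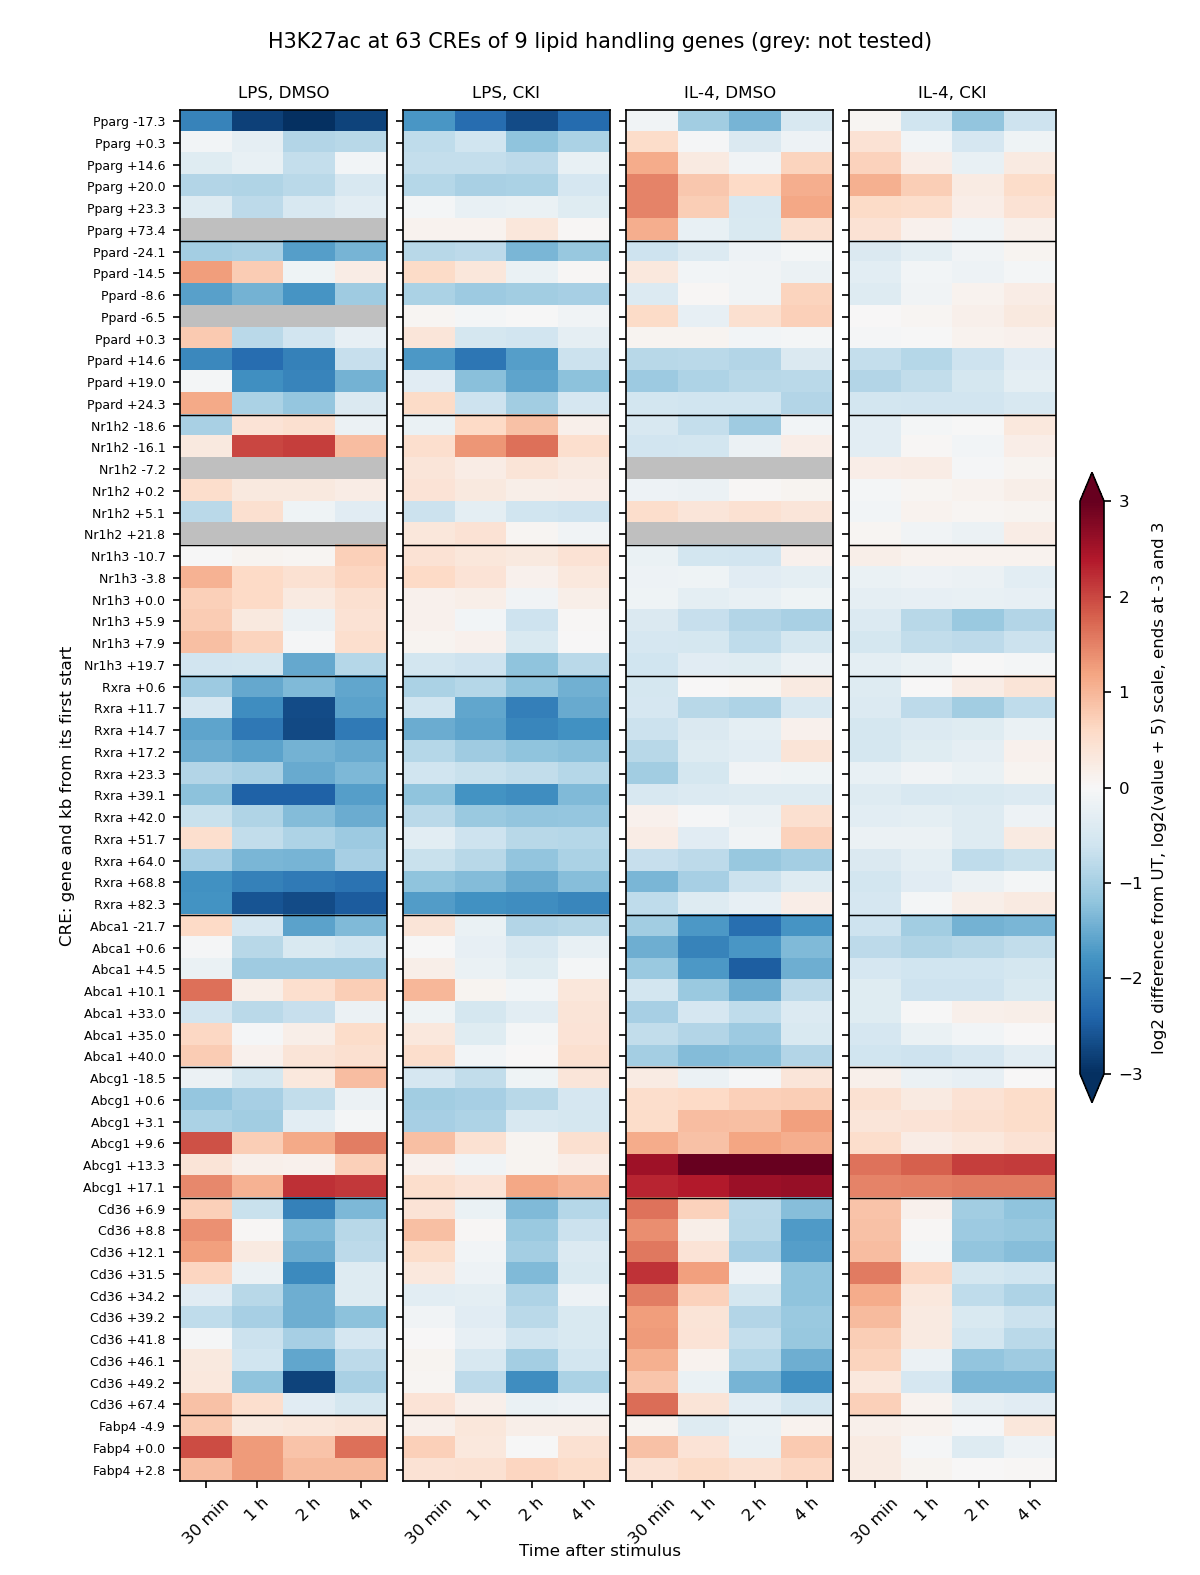
Log2 difference of H3K27ac from UT at the 63 CREs (rows, grouped by gene and ordered by kb from the first start) at 4 times after LPS or IL-4 (columns), in DMSO cells (2 libraries a group) and as the mean within compound over CKI cells. Blue is lower and red higher than UT, with colours ending at -3 and 3 and untested CREs in grey. The 11 Rxra rows are blue after LPS apart from Rxra +51.7 at 30 min in DMSO cells, the 7 Abca1 rows are blue after IL-4 in DMSO cells, and the 10 Cd36 rows turn from red at 30 min to blue at 4 h after IL-4.

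Among the nuclear receptor genes, Pparg carried the largest loss. At Pparg -17.3 (chr6:115342477-115344614, intergenic) the UT libraries held 420 and 435 normalized reads. After LPS they held 94 and 111 at 30 min, 60 and 55 at 1 h, 26 and 21 at 2 h and 65 and 51 at 4 h, so every LPS library was below every UT library. At 2 h the log2 difference was -3.93 ± 0.22 (SE), or 15.2-fold lower on the log2(value + 5) scale (limma, adjusted p = 2.48e-16). IL-4 lowered the same CRE less, to 136 and 190 at 2 h, with a return to 292 and 314 at 4 h, and its largest log2 difference was -1.38 ± 0.13 (limma, adjusted p = 1.58e-13). The promoter CRE Pparg +0.3 (chr6:115360344-115361957) was called after neither stimulus in DMSO cells, with 194 in both UT libraries, 118 and 89 at 2 h of LPS and 256 and 317 at 30 min of IL-4.

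Inside the gene, Pparg gained H3K27ac after IL-4. At the intronic Pparg +20 (chr6:115380044-115381781) the values went from 113 and 142 in UT to 348 and 383 at 30 min of IL-4, and were 210 and 240 at 1 h, 188 and 203 at 2 h and 266 and 287 at 4 h. All IL-4 libraries were above both UT libraries, and the log2 difference at 30 min was 1.49 ± 0.13 (limma, adjusted p = 2.82e-12). After LPS this CRE held between 61 and 94, below both UT values, and was not called. The neighbouring Pparg +14.6 and Pparg +23.3 also rose after IL-4, by 1.11 and 1.49 at 30 min. Their log2 differences were -0.10 and -0.48 at 2 h and 0.66 and 1.17 at 4 h, so that both were lowest at 2 h.

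**Figure D2:**
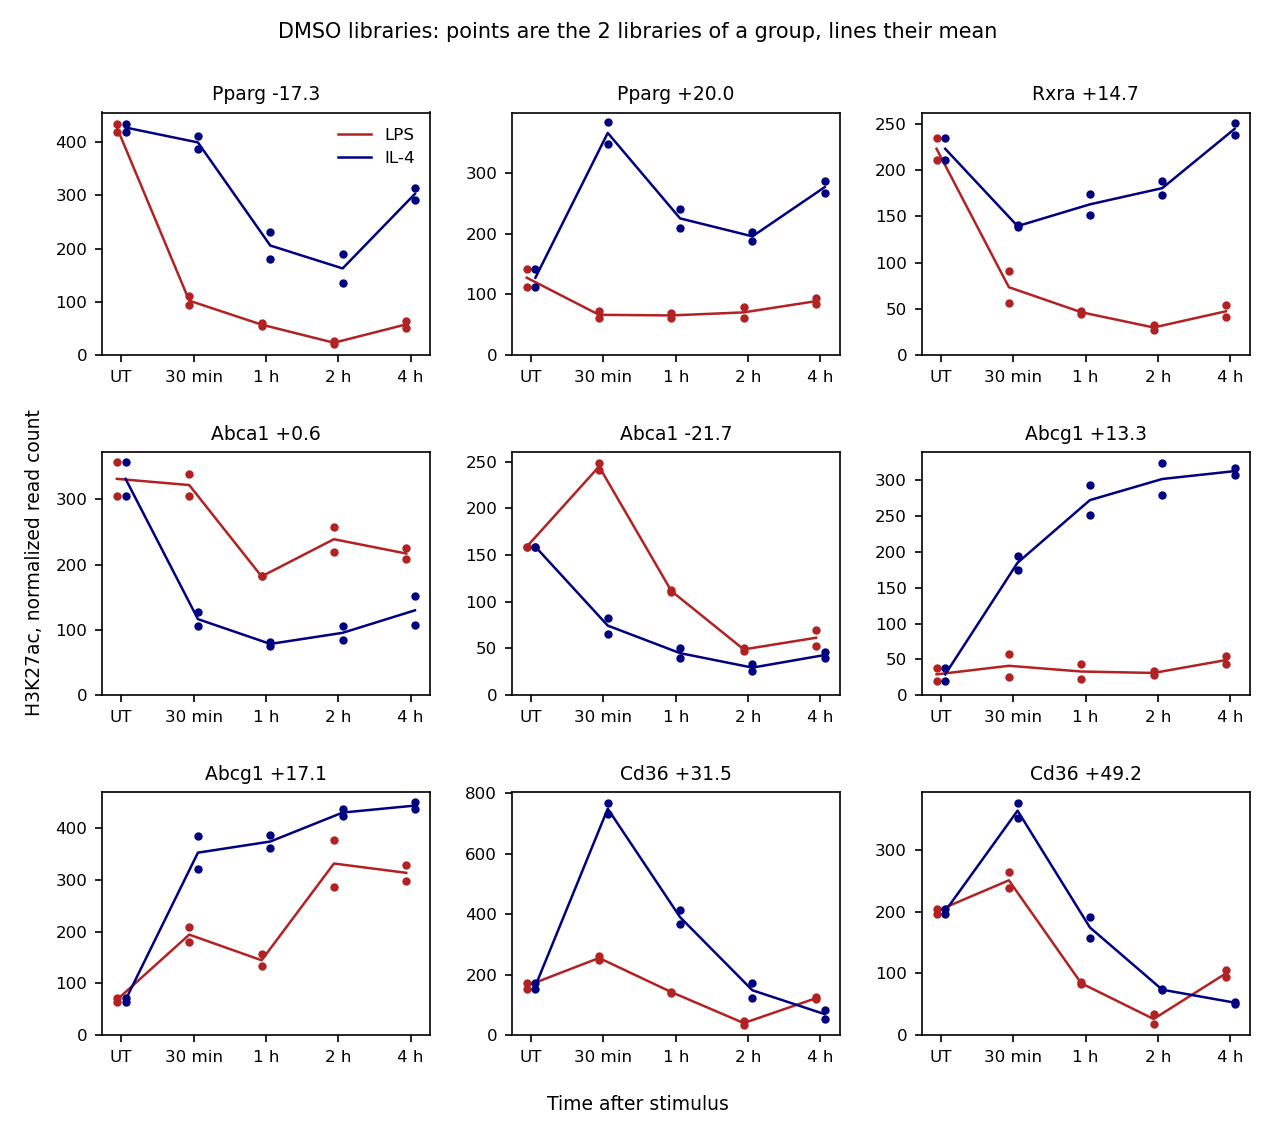
H3K27ac in normalized read counts (y axis, from 0) at 9 CREs in every DMSO library of UT cells and of 4 times after LPS (red) or IL-4 (blue). Points are the 2 libraries of a group and lines join their means. Pparg -17.3 and Rxra +14.7 fall after LPS, Abcg1 +13.3 rises from 20 and 38 in UT to 318 and 308 at 4 h of IL-4 and stays near UT after LPS, and Cd36 +31.5 passes from 731 and 767 at 30 min of IL-4 to 54 and 84 at 4 h.

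Ppard, the gene of the PPAR form found in most tissues, lost H3K27ac at 5 of 7 tested CREs after LPS and gained it at 1. Among these, Ppard -24.1 and Ppard -8.6, both lower, and Ppard -14.5, the higher one, lie in introns of the neighbouring gene Def6. The strongest loss was in the first intron of Ppard, at Ppard +14.6 (chr17:28246038-28248646). There 419 and 351 in UT became 76 and 123 at 30 min, 65 and 87 at 1 h, 91 and 91 at 2 h and 251 and 224 at 4 h. The log2 difference at 1 h was -2.28 ± 0.20 (limma, adjusted p = 7.75e-13), and recovery was partial at 4 h. Ppard +19.0 held 153 and 154 in UT and 150 and 144 at 30 min of LPS, and only then fell, to 37 and 34 at 2 h (log2 difference -1.97 ± 0.22). It was also the Ppard CRE called after IL-4, with a log2 difference of -1.09 at 30 min. The promoter CRE Ppard +0.3 (chr17:28231764-28234434) passed from 253 and 237 in UT to 416 and 435 at 30 min of LPS and 148 and 130 at 1 h, and was not called at a log2 difference over 1.

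The CREs at the starts of the LXR genes were called after neither stimulus. The one at the start of Nr1h3 (Nr1h3 +0.0, which overlaps an exon of Acp2) held 364 and 380 in UT, 579 and 657 at 30 min of LPS and 303 and 381 at 30 min of IL-4. Within Nr1h3, Nr1h3 +5.9 went from 334 and 306 to 167 and 156 at 4 h of IL-4, a log2 difference of -0.96 that just missed the threshold of 1 (limma, adjusted p = 1.09e-07). Nr1h3 +19.7, which lies in an intron of the neighbouring gene Madd, fell after LPS from 435 and 490 to 142 and 171 at 2 h (log2 difference -1.54 ± 0.14). Nr1h3 -3.8, in an intron of Acp2, was called as higher after LPS, from 526 and 459 to 960 and 1076 at 30 min (log2 difference 1.04), but not after quantile normalization (0.93). No Nr1h3 CRE was called after IL-4 in DMSO cells, though Nr1h3 +5.9 was after quantile normalization (-1.01).

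At Nr1h2 the promoter CRE Nr1h2 +0.2 (chr7:44552621-44554818) stayed between 240 and 406 in all 18 DMSO libraries and was not called. The intergenic Nr1h2 -16.1 (chr7:44569217-44570865), which is nearer to Napsa, rose after LPS from 28 and 30 to 122 and 139 at 1 h and 140 and 137 at 2 h, a log2 difference of 2.08 ± 0.23 (limma, adjusted p = 7.44e-11). After IL-4 it held between 15 and 43. Nr1h2 -18.6, at an exon of Napsa, was lower after IL-4 at 2 h, with 23 and 25 against 55 and 56 in UT (log2 difference -1.06). After quantile normalization of the libraries this log2 difference was -0.999 and no longer passed.

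Rxra, the shared partner of all these receptors, lost H3K27ac after LPS at all 11 CREs, from its start to 82299 bp into the gene. At Rxra +14.7 (chr2:27690134-27692212) 235 and 211 in UT became 56 and 91 at 30 min, 45 and 48 at 1 h, 33 and 27 at 2 h and 54 and 41 at 4 h. The log2 difference at 2 h was -2.71 ± 0.25, or 6.53-fold lower (limma, adjusted p = 7.57e-11). The promoter CRE Rxra +0.6 (chr2:27676122-27677909) passed from 106 and 91 to 22 and 40 at 4 h of LPS (log2 difference -1.57). The 11 largest log2 differences ran from -2.71 to -1.10, and Rxra +51.7 was the one CRE that was above UT at 30 min, with 61 and 75 against 51 and 42, before it fell. After IL-4 Rxra +64.0 and Rxra +68.8 were called, both lower, and quantile normalization added Rxra +17.2 (-1.06) and Rxra +23.3 (-1.27). Rxra +68.8 fell from 87 and 103 to 34 and 33 at 30 min of IL-4 (log2 difference -1.37 ± 0.23) and held 78 and 65 at 4 h, whereas after LPS it remained between 12 and 30 from 30 min to 4 h.

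Abca1, which loads cholesterol onto apolipoprotein A-I, lost H3K27ac at all 7 CREs after IL-4 in DMSO cells. At the promoter CRE Abca1 +0.6 (chr4:53157975-53160886) 305 and 358 in UT became 106 and 127 at 30 min, 76 and 81 at 1 h, 106 and 85 at 2 h and 108 and 152 at 4 h, with no overlap between IL-4 and UT libraries. The log2 difference at 1 h was -2.01 ± 0.17, or 4.02-fold lower (limma, adjusted p = 1.97e-13). The same CRE was not called after LPS, where it held 305 and 339 at 30 min and 182 and 182 at 1 h. Abca1 +4.5, a CRE of lower level, fell after IL-4 from 53 and 63 to 4 and 9 at 2 h, a log2 difference of -2.48 ± 0.34.

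After LPS the Abca1 CREs did not move together. The intronic Abca1 +10.1 (chr4:53148265-53151482) rose from 102 and 60 to 213 and 313 at 30 min of LPS, a log2 difference of 1.66 ± 0.22 (limma, adjusted p = 2.95e-07), and fell to 28 and 23 at 2 h of IL-4. The upstream Abca1 -21.7 (chr4:53180934-53182469) had 159 in both UT libraries and rose to 249 and 241 at 30 min of LPS before it dropped to 47 and 51 at 2 h. After IL-4 it was already at 83 and 66 at 30 min and at 26 and 33 at 2 h (log2 difference -2.26 ± 0.23).

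Abcg1, which passes cholesterol to high-density lipoprotein, gained H3K27ac after IL-4 at 4 intronic CREs. At Abcg1 +13.3 (chr17:31070166-31071880) the UT libraries held 38 and 20, and those of IL-4 175 and 195 at 30 min, 251 and 294 at 1 h, 280 and 324 at 2 h and 318 and 308 at 4 h. The log2 difference at 4 h was 3.28 ± 0.17, or 9.70-fold higher (limma, adjusted p = 3.35e-23). After LPS the same CRE held 23 to 57 in 8 libraries, which overlap the UT values, and was not called. It was therefore the CRE of the set that separated the stimuli most, with a log2 difference of LPS minus IL-4 of -3.09 ± 0.26 at 2 h (limma, adjusted p = 5.35e-20).

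The next CRE, Abcg1 +17.1 (chr17:31073180-31076499), rose after both stimuli. It held 72 and 64 in UT, 376 and 287 at 2 h of LPS and 450 and 437 at 4 h of IL-4. The log2 differences were 2.19 ± 0.17 and 2.62 ± 0.12. The promoter CRE Abcg1 +0.6 (chr17:31056927-31059708) went in opposite directions, from 179 and 176 in UT to 66 and 90 at 30 min of LPS (log2 difference -1.15 ± 0.20) and to 302 and 301 at 4 h of IL-4 (0.75 ± 0.12, not called). Abcg1 +3.1 did the same, at 26 and 62 at 1 h of LPS and 241 and 196 at 4 h of IL-4, and passed the test after both. Abcg1 +9.6, with 13 and 18 in UT, was higher after both, by 1.90 and 1.19.

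Cd36, a receptor for oxidised lipoprotein and long-chain fatty acids, went from above to below the UT level within 4 h of IL-4 at each of its 10 CREs. At Cd36 +31.5 (chr5:17856634-17858333) the values were 173 and 152 in UT, 731 and 767 at 30 min, 367 and 413 at 1 h, 124 and 172 at 2 h and 54 and 84 at 4 h. The log2 difference was 2.17 ± 0.15 at 30 min and -1.21 at 4 h (limma, adjusted p = 8.16e-24 over the times). At 4 h the other CREs had lost 0.54 to 1.84 on the log2 scale, most at Cd36 +49.2 (chr5:17838945-17840657), which went from 197 and 205 in UT to 352 and 376 at 30 min and 51 and 54 at 4 h. Cd36 +12.1 and Cd36 +6.9, nearest to the first start with Cd36 +8.8, passed from 158 and 152 to 447 and 506 and then 52 and 40, and from 98 in both UT libraries to 314 and 310 and then 42 and 34. Cd36 +34.2 and Cd36 +46.1 had log2 differences of 1.53 and 1.06 at 30 min and of -1.20 and -1.47 at 4 h. A gain over 0.5 at 30 min with a loss over 0.5 at 4 h, a pattern defined after the values were seen, held for 10 of 10 Cd36 CREs, for 0 CREs of the other genes and for 1.6% of all CREs. The 10 Cd36 CREs are neighbours at the same gene, read in the same libraries, so they are not independent observations.

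**Figure D3:**
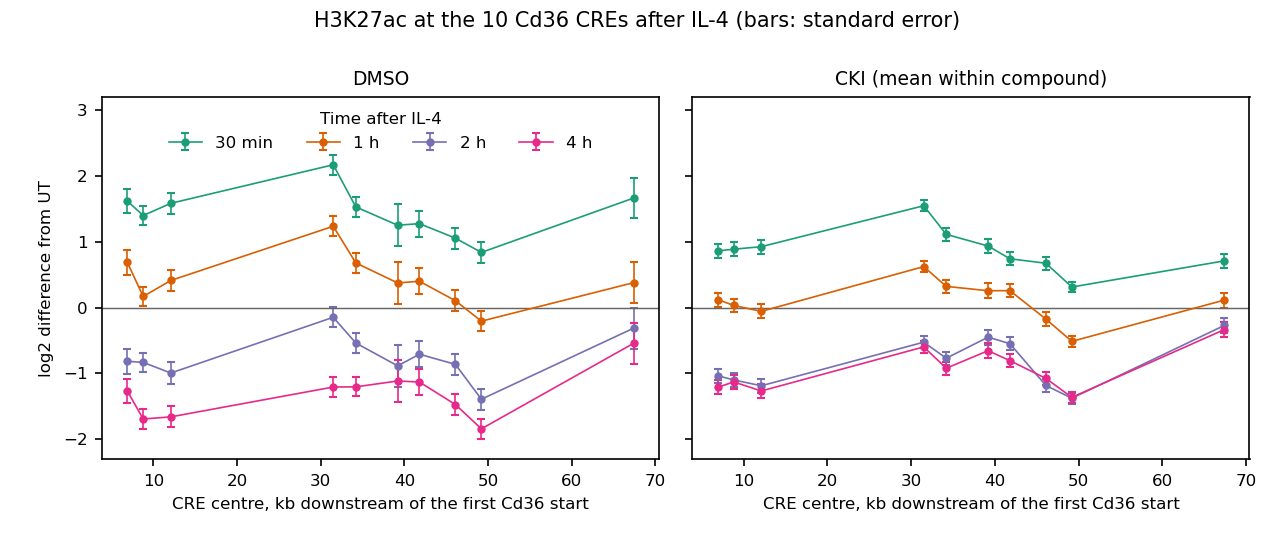
Log2 difference from UT after IL-4 (y axis) at the 10 Cd36 CREs by the distance of their centre from the first Cd36 start (x axis, kb), in DMSO cells (left) and as the mean within compound in CKI cells (right), with 1 colour for each time and bars for the standard error. All 10 CREs lie above 0 at 30 min and below 0 at 4 h in both panels, and Cd36 +31.5 is the highest at 30 min.

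After LPS the Cd36 CREs fell at 2 h. Of 10 CREs, 7 were called as lower and 1, Cd36 +8.8 (chr5:17879190-17881063), as higher, since it rose from 206 and 185 to 490 and 538 at 30 min and then fell to 89 and 60 at 2 h. Cd36 +49.2 was lowest at 2 h of LPS with 18 and 34, a log2 difference of -2.78 ± 0.22 (limma, adjusted p = 2.96e-14), and held 106 and 94 at 4 h. The CRE at an internal start, Cd36 +39.2, had 39 and 31 in UT, 101 and 80 at 30 min of IL-4 and 10 and 9 at 2 h of LPS.

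Fabp4, the fatty acid carrier of adipocytes and macrophages, had low values. Its promoter CRE Fabp4 +0.0 (chr3:10207848-10209470) held 15 and 9 in UT, 58 and 63 at 30 min of LPS and 49 and 46 at 4 h, a log2 difference of 1.97 ± 0.33 at 30 min (limma, adjusted p = 1.98e-05). After IL-4 it held between 7 and 34 and was not called. The other 2 Fabp4 CREs were called after neither stimulus.

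The direct comparison of the stimuli at matched times in all 18 DMSO libraries called 43 of 59 CREs, 13 (22%) as higher after LPS and 30 (50.8%) as lower after LPS, against 29.2% and 29.2% of all CREs. Abca1 was higher after LPS than after IL-4 at 6 of 7 CREs and Nr1h3 at 3 of 6. Rxra was lower after LPS at 10 of 11, Cd36 at 6 of 10, and Pparg, Abcg1 and Ppard at 4 each. Each direction is that at the time of the largest difference, and at some CREs it changed with time. At Ppard +19.0, counted as lower, LPS minus IL-4 was 1.03 at 30 min and -1.14 at 2 h. At Ppard +24.3, counted as higher, it was 1.69 at 30 min and -0.57 at 2 h. The direction also changed at Cd36. At 4 h LPS minus IL-4 was above 0 at Cd36 +31.5 (0.81), Cd36 +34.2 (0.81), Cd36 +41.8 (0.62) and Cd36 +49.2 (0.87). It was -0.07 at Cd36 +6.9 and -0.12 at Cd36 +39.2, the other Cd36 CREs called as lower. At Abca1 +10.1 the log2 difference of LPS minus IL-4 was 2.20 ± 0.24 at 30 min, and at Pparg +20 it was -2.38 ± 0.18 at the same time.

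The 546 CKI libraries, which the DMSO fits had not used, gave the response averaged within compound. After LPS 38 of 63 CREs (60.3%) were lower and 10 (15.9%) higher, against 29.1% and 34.6% of all CREs, at an adjusted p under 0.01 and a log2 difference over 0.5. After IL-4 24 (38.1%) were lower and 12 (19%) higher, against 16.1% and 16% of all CREs. Of the 37 CREs called after LPS in DMSO cells, 36 were also called among the 48 in CKI cells, 28 lower and 7 higher in both. Cd36 +8.8 differed in direction, since its largest difference was the gain at 30 min in DMSO cells and the loss at 2 h in CKI cells. After IL-4 26 of 29 were also among the 36 called in CKI cells, 11 higher and 13 lower in both. The other 2, Cd36 +6.9 and Cd36 +41.8, were called as higher in DMSO and as lower in CKI cells. At Abca1 5 of 7 CREs were called as lower after IL-4 in CKI cells, while Abca1 +33.0 and Abca1 +35.0 were not called. The log2 threshold was lower in CKI cells (0.5) than in DMSO cells (1), and the same overlap over all CREs was not computed. Whether these overlaps are particular to the 9 genes was therefore not tested. The mean log2 differences in CKI cells were smaller than those of DMSO cells at Pparg -17.3 after LPS (-2.69 ± 0.08), Rxra +14.7 after LPS (-1.96 ± 0.07), Abca1 +0.6 after IL-4 (-0.90 ± 0.05) and Abcg1 +13.3 after IL-4 (2.11 ± 0.055). Contrast was lower in these libraries too (above). Pparg -17.3, Rxra +14.7 and Abcg1 +13.3 had also been named for the largest difference of their gene in DMSO cells. The parts of contrast and of this choice in the smaller differences were not tested.

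Each CKI was compared with its own UT library, so that the DMSO libraries were not needed. Pparg -17.3 was lower after LPS in all 58 CKIs at 30 min, all 57 at 1 h, all 55 at 2 h and all 55 at 4 h. At 2 h its median log2 difference was -2.74, from -4.01 with AZD8186, -3.88 with TG100572 and -3.68 with Selumetinib to -1.40 with MK2206, -1.19 with Neratinib and -1.16 with Bafetinib. Rxra +14.7 fell in all CKIs from 30 min to 2 h and in 54 of 55 at 4 h, where PH797804, a p38 inhibitor, gave 0.12 and the next highest were BMS911543 (-0.98) and Pacritinib (-1.01). The spread between 2 libraries of the same CKI, stimulus and time was 0.19 to 0.83 (SD, 36 pairs) at the 63 CREs, so single CKIs at single times are uncertain by about this much.

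The IL-4 responses were as regular at Abcg1 and less so at Cd36. Abcg1 +13.3 was higher in 57 of 58 CKIs at 30 min, the exception being Omipalisib (-0.13), and in all 58, 56 and 55 at the later times. Abcg1 +17.1 was higher in every CKI at every time. Abca1 +0.6 was lower in 58 of 58, 56 of 58, 54 of 56 and 54 of 55 CKIs, and the highest value at each time was that of Mubritinib, 0.65 at 1 h. Cd36 +31.5 was higher in 58 of 58 CKIs at 30 min, with the largest gains for PF04691502 (3.10), OSI930 (2.58) and AZD2014 (2.19) and the smallest for Talmapimod (0.31), Lenvatinib (0.34) and Lapatinib (0.75). At 4 h it was lower in 45 of 55, and the highest values were those of Apitolisib (1.04), Omipalisib (1.03) and PF04691502 (0.89), against a lowest of -2.11 with AZD1208, -2.05 with Telatinib and -1.50 with Poziotinib. The 6 runs of compounds were defined by the column order of the table and not by a label, and were used as a technical batch. Their means for this CRE at 4 h were -0.15, -0.23, -1.02, -0.68, -1.12 and -0.25, all below 0.

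**Figure D4:**
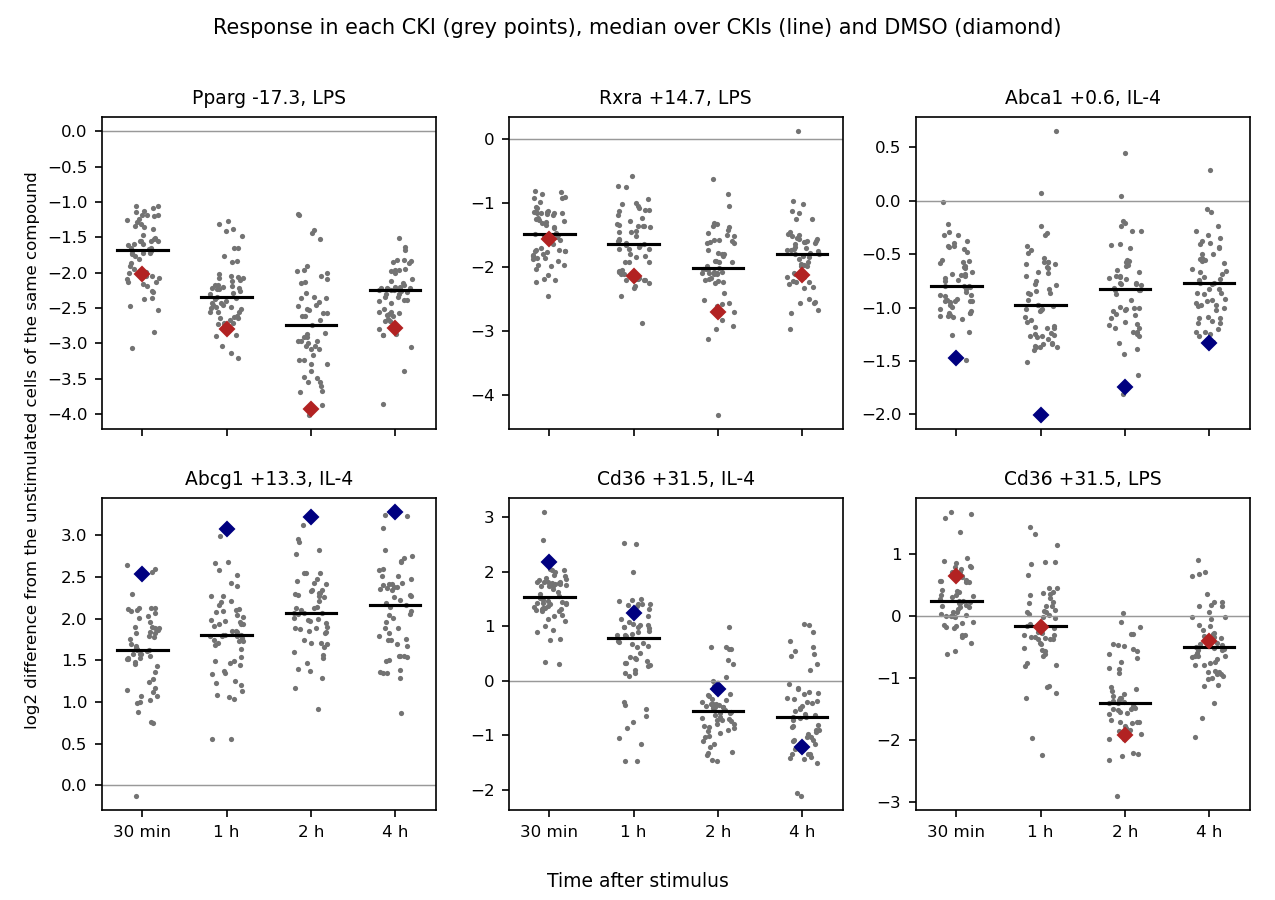
Log2 difference from the UT cells of the same compound (y axis) at 4 times after LPS or IL-4 (x axis) for 5 CREs, with Cd36 +31.5 shown after both stimuli. Each grey point is 1 CKI, the black line is the median over CKIs and the diamond is the DMSO value (red LPS, blue IL-4). Points lie below 0 for Pparg -17.3 at every time and above 0 for Abcg1 +13.3 apart from 1 at 30 min, and those of Cd36 +31.5 after IL-4 cross from above to below 0.

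Averaged over CKIs, the gain and loss after IL-4 held for 8 of 10 Cd36 CREs, for 0 CREs of the other genes and for 0.227% of all CREs. The 2 without it were Cd36 +49.2, with a gain of 0.31 at 30 min, and Cd36 +67.4, with a loss of 0.33 at 4 h.

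The level in each CKI was then compared with DMSO, averaged over the times of a stimulus and UT (adjusted p under 0.05 within the CKI and a log2 difference over 0.5). All DMSO libraries lie outside the 6 runs of CKIs and have higher contrast. An effect of the CKIs and of a batch can therefore not be told apart in this comparison. Over the LPS and UT libraries 990 of 3654 pairs of CRE and CKI (27.1%) were higher and 271 (7.42%) lower than DMSO, against 32.3% and 4.04% of all pairs. Over the IL-4 and UT libraries 1046 (28.6%) were higher and 257 (7.03%) lower, against 36.2% and 3.03%. After quantile normalization 85 pairs were called as higher and 160 as lower with LPS, and 176 and 228 with IL-4, so the number of calls of a higher level depended on the scaling.

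Pairs below DMSO were most frequent at Cd36 and Pparg in the IL-4 libraries. In the LPS libraries the order of the genes changed with the DMSO replicate left out, since without replicate 2 45 of 348 Nr1h3 pairs were lower, against 38 of 348 at Pparg and 62 of 580 at Cd36. For Cd36 93 of 580 pairs (16%) were lower in the LPS and 186 (32.1%) in the IL-4 libraries, and 91 and 171 after quantile normalization, where 2.63% and 3.76% of all pairs were. Over the IL-4 libraries all 10 Cd36 CREs were lower than DMSO with Vatalanib, with a median log2 difference of -1.04, and 9 were lower with BMS911543 and with Omipalisib, with medians of -1.33 and -0.92. These 3 CKIs belong to the same run, the first in column order, which had the lowest median contrast (11.2, against 13.1 to 35.1 in the other runs), and its part in these values was not tested. When the mean of all compounds replaced DMSO as the reference, 25 and 32 Cd36 pairs were lower. Without DMSO replicate 1 they numbered 61 and 125, and without DMSO replicate 2 62 and 96. For Pparg 50 of 348 pairs (14.4%) and 67 (19.3%) were lower, and 38 and 41 after quantile normalization. Without DMSO replicate 1 they numbered 32 and 59, without replicate 2 38 and 50, and against the mean of all compounds 8 and 8. At Rxra, in contrast, 381 of 638 pairs (59.7%) were higher in the LPS libraries and none lower, whereas after quantile normalization 49 were higher and 3 lower. Against the mean of all compounds 3 Rxra pairs were higher and 11 lower, so the excess of higher pairs was seen only with DMSO as the reference.

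**Figure D5:**
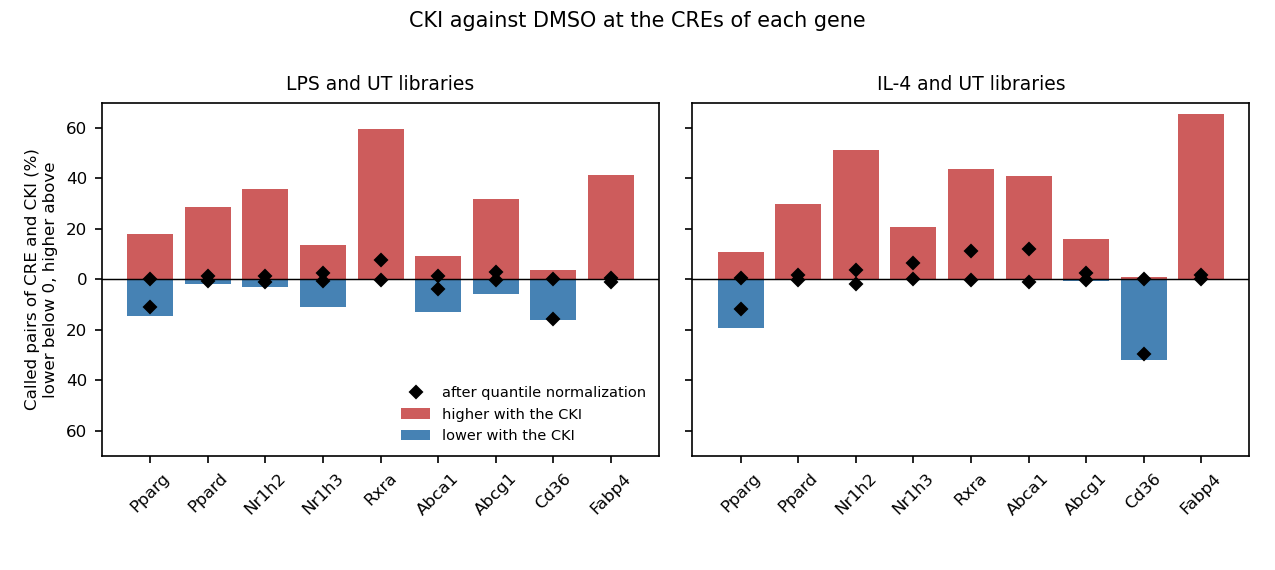
Share of pairs of CRE and CKI called higher (red, above 0) or lower (blue, below 0) than DMSO for each of the 9 genes, over the LPS and UT libraries (left) and the IL-4 and UT libraries (right), with 58 CKIs. Black diamonds give the shares after quantile normalization, which leaves 91 and 171 of the 580 Cd36 pairs lower.

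Inhibitors were last grouped by the kinases they are named for, and the mean response of a family over the 4 times was compared with that of the other CKIs, with the run as a term. At an adjusted p under 0.05 over all CREs (limma), 0 of the 63 CREs were called in any of 6 comparisons. For JAK inhibitors (6 CKIs) 0% of all CREs were called after IL-4 and 0% after LPS, for MEK or ERK inhibitors (5) 0% after LPS, for p38 inhibitors (3) 0.162% after LPS, and for PI3K, mTOR or AKT inhibitors (9 for IL-4, 8 for LPS) 0% after each. At an unadjusted p under 0.05 3, 1, 5, 7, 4 and 6 of the 63 CREs were below it in that order, where 1.74%, 2.2%, 3%, 15.9%, 7.12% and 14.4% of all CREs were. At Abcg1 +13.3 the IL-4 response averaged 1.94 with JAK inhibitors and 1.90 with the others, a run-adjusted difference of 0.07 with an approximate 95% interval of -0.26 to 0.39, and at Abcg1 +17.1 the difference was -0.01 (-0.27 to 0.24). The smallest p belonged to Rxra +14.7 after LPS, where p38 inhibitors gave a mean of -1.36 and the others -1.77, a difference after adjustment for the run of 0.63 (0.32 to 0.95) that did not pass (limma, adjusted p = 0.0739). With PI3K, mTOR or AKT inhibitors the IL-4 response at Cd36 +31.5 averaged 0.74, against 0.21 with the others, an adjusted difference of 0.40 (0.09 to 0.71) that did not pass either (limma, adjusted p = 0.613).

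Other genes of these pathways were read at the CRE within 1 kb of their start in DMSO cells. Of 7 LXR target genes with such a CRE, 3 fell after LPS and none rose, namely Apoe (-2.65, the apolipoprotein E gene), Arl4c (-2.59) and Pltp (-1.96, a phospholipid transfer protein), and Pltp alone was called after IL-4 (-1.11). Among partners and cofactors, Ppargc1b (-1.33), a coactivator of PPARs, fell after LPS, while Ppargc1a rose from a mean of 3.5 in UT (1.68). Ppargc1b rose after IL-4 (1.14). Of 9 PPAR target genes, Cpt1a (-1.24), which admits fatty acids to mitochondria, and Fabp5 (-1.07) fell after LPS and Tgm2 (-1.58) fell after IL-4. Of 10 genes of lipid uptake, storage and hydrolysis, the scavenger receptors Olr1 (2.87) and Msr1 (1.17) rose and the cholesterol ester hydrolase Nceh1 (-2.08) and the lysosomal lipase Lipa (-1.73) fell after LPS, while Olr1 rose (1.90) and Nceh1 fell (-1.09) after IL-4. These are log2 differences at the time of the largest change. Of all CREs tested, 24.5% were called as lower and 29% as higher after LPS, and 11% and 13.6% after IL-4. The lists are short and were not tested as sets, so these calls are not shown to exceed those shares.

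Over the means of the 9 DMSO groups, the promoter CREs whose pattern was most like that of a promoter CRE of the set were found among 11084 by Pearson's r. For Abca1 +0.6 they were Mgst2 (r = 0.88), Plekhm3 (0.88) and Plcl2 (0.87), for Cd36 +39.2 Serpinb12 (0.97), Itprid2 (0.91) and Stxbp5 (0.90), and for Pparg +0.3 Tbc1d2b (0.96), Syne1 (0.94) and Cfap45 (0.93). These values describe 9 points that share their libraries.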

How the data were processed

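H3K27ac ChIP-seq reads of 564 BMDM libraries were processed by the authors, who trimmed adapters, aligned reads to mm10 with ShortStack, counted them in windows around ATAC-seq summits and scaled the libraries on invariant peaks. The processing notes also name Bowtie and SAMtools. The deposited values are these normalized read counts rounded to whole numbers and were treated as a score, so that no count model was used. Depth before scaling is known only where the value of 1 read could be found, and low values carry counting error.

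Groups were taken from the sample labels. Values were tested as log2(value + 5) with limma 3.58.1 in R 4.3.3 (trended variance, Benjamini-Hochberg adjustment), after removing CREs with a mean under 10. DMSO time courses used 10 libraries each and an F-test over times. CKI responses had compound as a factor. CKI levels against DMSO used 324 and 315 libraries, with terms for time and compound. Intervals are 1.96 SE. Scripts were tested on simulated data. Replicate numbers were not taken as pairs, since same-numbered deviations correlated by -0.087 to 0.066 over 36 pairs of groups.

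The genes and gene lists were chosen with earlier results of these data known. Named for each gene were the CRE nearest to a start, those with the largest difference after LPS and after IL-4, and those called in all 4 time courses. Pathway genes were those with the 3 largest differences in each direction. A result among the partners and cofactors is not reported here, and no count is given for that list. Pparg +14.6, Pparg +23.3, Rxra +17.2, Rxra +23.3, Rxra +51.7, Ppard -24.1, Ppard -14.5, Ppard -8.6, Ppard +24.3, Nr1h3 -3.8, Abca1 +33.0, Abca1 +35.0, Cd36 +41.8 and Cd36 +67.4 were named after their values were seen. The single CKIs Mubritinib, Vatalanib, BMS911543 and Omipalisib were named likewise at Abca1 and Cd36. Alternatives covered the pseudocount, filter, scaling, threshold, distance window, replicate block, left-out libraries and runs. Sequences and gene positions come from the RefSeq annotation and the GRCm38 genome.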

Additional observations from a re-analysis of the deposited data

Results flagged for a closer look

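The difference between early and late times was tested with limma as the log2 difference at 4 h minus that at 30 min in DMSO cells. Given first are the CREs named by rule that were called, lay on opposite sides of the UT level at the 2 times and differed by more than 1. After IL-4 it was -3.38 at Cd36 +31.5, -3.25 at Cd36 +12.1, -3.09 at Cd36 +8.8 and -2.89 at Cd36 +6.9. It was -2.74 at Cd36 +34.2, -2.68 at Cd36 +49.2, -2.53 at Cd36 +46.1 and -2.37 at Cd36 +39.2, where the adjusted p of limma was highest (5.85e-08). The other Cd36 CREs, outside that rule, had -2.41 (Cd36 +41.8) and -2.21 (Cd36 +67.4). All of these CREs were higher at 30 min and lower at 4 h than in UT cells.

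After LPS the same difference was -2.20 at Cd36 +8.8, -2.05 at Cd36 +6.9, -2.001 at Cd36 +12.1, -1.29 at Cd36 +49.2, -1.09 at Cd36 +46.1 and -1.03 at Cd36 +31.5. Among named CREs of other genes it was -1.92 at Abca1 -21.7, which went from 249 and 241 at 30 min to 70 and 53 at 4 h. Called CREs outside the naming rule had similar values, -1.60 at Rxra +51.7 and -1.57 at Ppard +24.3. The contrast of these times was chosen after the values were seen.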

How the results depend on the processing

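Counts of CREs called were within 1.5 times the reported count in 79 of 87 alternatives and in 78 of 79 that left out a library or inhibitor. Both totals include the comparisons of inhibitor families, where the reported count was 0 and another 0 was taken as the same. Such pairs of 0 say little about how stable the results are. With a window of 10 kb, which holds fewer CREs, 21 were called after LPS, 16 after IL-4 and 23 between the stimuli, and with a log2 threshold of 0.5 44 were called after IL-4. Pairs of CRE and CKI that differed from DMSO numbered 245 (85 higher, 160 lower) with LPS and 404 (176 higher, 228 lower) with IL-4 under quantile normalization, from 990 higher and 271 lower and from 1046 higher and 257 lower, and 128 and 147 against the mean of all compounds; the cause was not tested. Without VX702 1 CRE was called for p38 inhibitors, against 0 without each of the others. Leaving out 1 DMSO library gave 30 to 38 CREs after LPS, 25 to 32 after IL-4 and 43 to 45 between the stimuli. The replicate block gave 37, 29 and 43 and changed no call, and the numbers do not pair the samples. Cd36 +46.1 after LPS at 2 h was 0.0404 in the first run of CKIs alone, the one reversal among 408 values within runs. Of 762 values of single CREs in DMSO cells 727 kept their side of the threshold. The gain and loss after IL-4 held for 9 of 10 Cd36 CREs with a pseudocount of 20 or without the second IL-4 library at 4 h. Quantile normalization moved the median of all CREs after IL-4 at 30 min from 0.09 to -0.08. Contrast and depth limit the CKI libraries, and 2 libraries a group limit the DMSO ones.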
